A study of Homo sapiens with 6 samples.

Results

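Proteins of the BCL2 family decide whether the outer membrane of the mitochondrion is opened, the step that commits a cell to intrinsic apoptosis. Pro-survival proteins hold the effectors BAX and BAK1 in check, and BH3-only proteins, which share just the short BH3 helix with the rest of the family, bind the pro-survival proteins or the effectors and shift the system toward death. In β cells several BH3-only genes are known to respond to stress of the endoplasmic reticulum, cytokines or high glucose. The transcripts of 10 family genes were examined in the human β cell line EndoC-βH1 after short treatment with AZD7762, a competitive inhibitor of the checkpoint kinases CHEK1 and CHEK2. The 10 genes were taken by their symbols as members of the family, with earlier results of these data known, and all 10 were found among the 60671 gene identifiers counted and were among the 17649 genes that passed a filter on low counts. They comprised 3 pro-survival genes (BCL2, BCL2L1 and MCL1), 5 BH3-only genes (BCL2L11, BBC3, PMAIP1, BAD and BIK) and 2 effectors (BAX and BAK1).

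The study sequenced polyadenylated RNA of 6 samples, 3 given the vehicle DMSO and 3 given 1 µM AZD7762, all labelled wild type. Cells were kept for 1 h in 0.5 mM glucose and then for 1 h in either 0.5 or 20 mM glucose, with DMSO or AZD7762 present in both steps. The glucose concentration of the second hour was not given for each library. The line carries a viral large T antigen, a protein known to bind p53, which limits it as a model for p53-dependent family genes. The paper's general statement for in vitro work is of 3 independent replicates or donors, and it does not name the sequencing. Nothing in the labels says that the replicates came from separate cultures, so p-values measure the spread between these samples, which may be technical.

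Libraries held between 20486391 and 29402440 counts, and 3 counts, the floor used here, equalled at most 0.144 normalized CPM (each count over the TMM-scaled total of its library, in the unit of CPM), a limit that covers counting error only. Of 18 β cell markers, 18 lay at or above 1 CPM in both groups, with summed levels of 8926 to 10146 CPM with DMSO and 9701 to 10166 CPM with AZD7762. Markers of other cell types summed to 263 to 290 CPM with DMSO and 315 to 341 CPM with AZD7762. Of these 16 markers, PECAM1 had no matched identifier and 6 reached 1 CPM in each group, most of the sum being SST, the somatostatin gene, at 214 and 253 CPM. With edgeR's quasi-likelihood test and Benjamini-Hochberg adjustment over all genes tested, 125 genes, or 0.708%, had an adjusted p under 0.05 and are said to be called.

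Among the 10 family genes, 2 passed that test, both BH3-only and both lower with AZD7762. These were PMAIP1, whose product NOXA neutralizes MCL1, and BCL2L11, whose product BIM binds every pro-survival protein and can activate BAX directly. PMAIP1 fell by 23.7%, from 92.5 ± 2.47 with DMSO to 70.5 ± 3.66 CPM with AZD7762 (mean ± SD, n = 3 samples a group here and below), and BCL2L11 fell by 19.0%, from 91.1 ± 2.06 to 73.8 ± 3.78 CPM. In bulk samples a lower level per cell and fewer cells with the transcript could not be told apart. No pro-survival gene and no effector passed. Of all genes tested, 0.351% were called lower and 0.357% higher. Over the 10 genes the median log2 fold change was 0.030, against 0.0076 over all genes tested.

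The promoters of both genes that fell are shown because they can be read beside each other. The sequences are those of RefSeq on build GRCh38.p14, which is not the build of the counts, and run 5′ to 3′ from 250 bases before to 50 bases after the gene start. BCL2L11 lies on the plus strand at chr2:111120664-111120963 and PMAIP1 on the plus strand at chr18:59899746-59900045. Capitals mark matches, on either strand, to GGGCGG (the GC box), CCAAT (the NF-Y box) or TGACG (the short site of the cyclic AMP response element).
BCL2L11: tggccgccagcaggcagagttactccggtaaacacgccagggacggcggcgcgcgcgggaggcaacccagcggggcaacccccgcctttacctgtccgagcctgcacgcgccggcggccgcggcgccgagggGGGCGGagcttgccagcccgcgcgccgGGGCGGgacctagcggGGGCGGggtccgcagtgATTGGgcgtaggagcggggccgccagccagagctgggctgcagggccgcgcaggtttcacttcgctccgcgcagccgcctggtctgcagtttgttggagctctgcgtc
PMAIP1: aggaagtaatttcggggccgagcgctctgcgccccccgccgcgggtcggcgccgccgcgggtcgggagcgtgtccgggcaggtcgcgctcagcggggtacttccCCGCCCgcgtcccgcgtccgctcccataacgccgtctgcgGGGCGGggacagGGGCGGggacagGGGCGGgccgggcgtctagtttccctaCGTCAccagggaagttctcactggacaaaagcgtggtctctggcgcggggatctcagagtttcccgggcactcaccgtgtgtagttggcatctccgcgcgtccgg

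The BCL2L11 window held 3 matches to GGGCGG and 1 to CCAAT, and the PMAIP1 window held 4 matches to GGGCGG and 1 to TGACG. Across the 35116 promoters of the same length, 45.0% held at least 1 match to GGGCGG, 34.6% to CCAAT and 24.6% to TGACG. Numbers of matches were not compared with those of other promoters. The GC content of the BCL2L11 window was 74.7% and that of the PMAIP1 window 71.3%. The full element TGACGTCA (1.85% of promoters) and TGANTCA, the site of AP-1 factors (7.71%), were in neither window. Likewise CACGTG, an E-box (7.26%), AAAGGTCA, the site of NR4A receptors (1.22%), and TGATGNAAT, a site of CEBP and ATF dimers (0.991%), had no match in either. The BAK1 window, the other one searched, held 2 matches to GGGCGG and 2 to CCAAT. Matches to TGACG also occur inside TGACGTCA. A match is a run of letters and not a measured binding site.

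**Figure D1:**
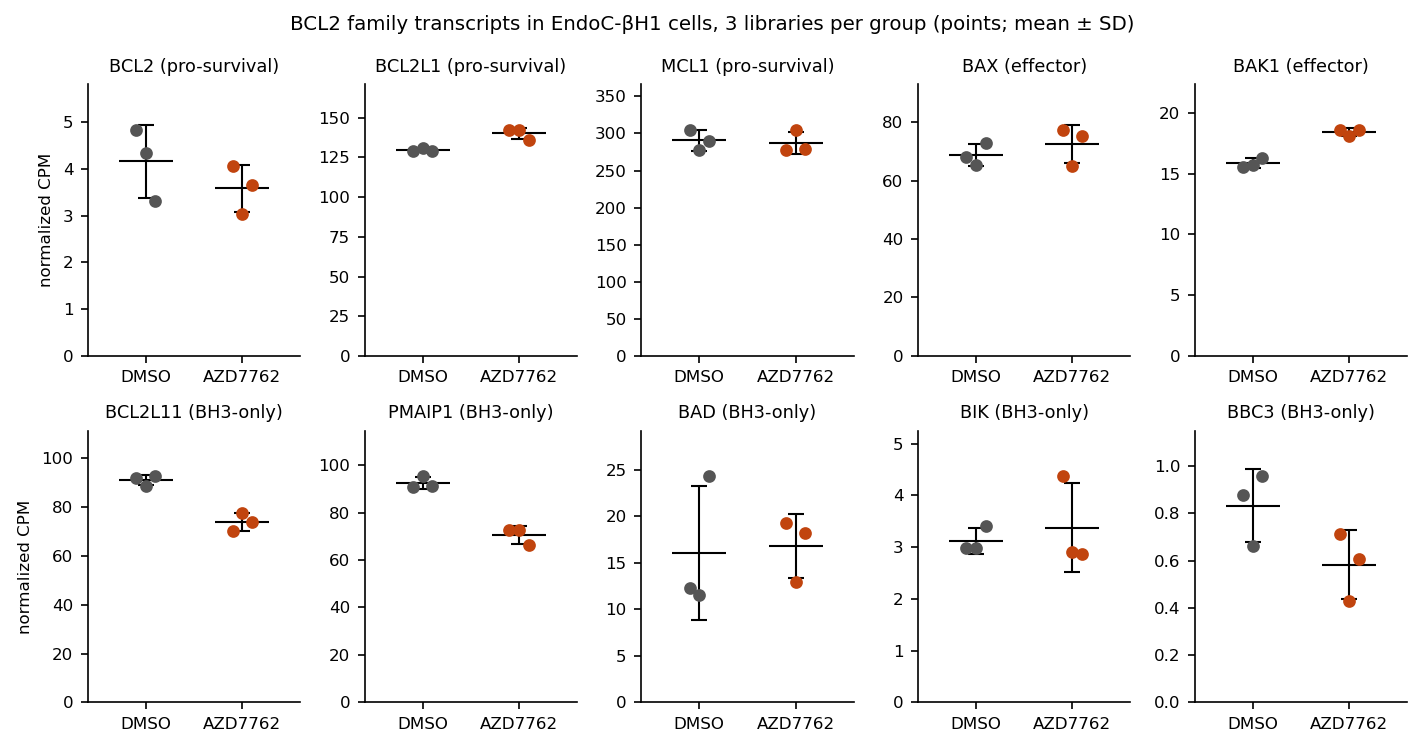
Normalized CPM (y axis, each panel from 0) of the 10 BCL2 family genes in the 3 DMSO and 3 AZD7762 libraries (points), with the mean and SD of each group (bars). The AZD7762 points lie below the DMSO points for PMAIP1 and BCL2L11 and above them for BAK1 and BCL2L1, and the groups overlap in the other 6 panels.

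PMAIP1 (ENSG00000141682, chromosome 18 of GRCh37, 57567228 to 57571537) had 90.9, 95.3 and 91.2 normalized CPM in DMSO replicates 1, 2 and 3 and 72.8, 72.5 and 66.3 in AZD7762 replicates 1, 2 and 3. The lowest DMSO library thus stood well above the highest AZD7762 library. In edgeR's test its change was -0.39 ± 0.0609 on the log2 scale (SE; 95% interval -0.52 to -0.26; adjusted p = 0.00659), which is 1.31-fold lower. By p it was gene 79 of the 17649, while 6.82% of all genes changed by at least as much on the log2 scale. The call held with each of the 6 libraries left out, at adjusted p from 0.00828 to 0.0445, and under the other 9 settings, at adjusted p from 1.29e-05 to 0.00713. In the annotation no other gene overlaps its exons. Its longest transcript had a GC content of 36.7%, the lowest of the 10, and once trends of the counts with GC content and length had been removed the log2 fold change was -0.35 (adjusted p = 0.000841, edgeR).

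BCL2L11 (ENSG00000153094, chromosome 2, 111876955 to 111926021) had 91.9, 88.7 and 92.6 normalized CPM in the DMSO replicates and 70.0, 77.6 and 73.7 in the AZD7762 replicates. Here too the groups did not overlap, with a gap between 77.6 and 88.7 CPM. Its change was -0.30 ± 0.0603 on the log2 scale (SE; 95% interval -0.44 to -0.17; adjusted p = 0.0391, edgeR), or 1.23-fold lower, and 10.8% of all genes changed by at least as much. The direction was the same in every one of the 15 other fits, but the call was lost with any 1 of the 6 libraries left out, at adjusted p from 0.0516 without AZD7762 replicate 2 to 0.211 without AZD7762 replicate 1. Of its exon length, 10.8% is overlapped on the opposite strand by MIR4435-2HG, a long noncoding RNA at 0.543 ± 0.310 CPM with DMSO and 0.433 ± 0.112 with AZD7762. Since the counting is not stated to use strand, reads in such overlaps could not be told apart.

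BBC3, BAD and BIK, the other BH3-only members, did not pass the test. BBC3 (ENSG00000105327, chromosome 19, 47724079 to 47736023) encodes PUMA, a potent killer induced by p53, and was the least abundant of the 10. It had 26, 18 and 20 counts in the DMSO libraries and 18, 9 and 13 in the AZD7762 libraries, or 0.832 ± 0.153 and 0.584 ± 0.145 CPM. Its log2 fold change of -0.48 had a 95% interval from -1.12 to 0.15 (adjusted p = 0.642, edgeR). A fall of the size of that of PMAIP1 lies inside this interval and was not detectable at this depth.

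BAD (ENSG00000002330, chromosome 11, 64037302 to 64052176), the BH3-only protein that is switched off by phosphorylation in growth factor and glucose signalling, had 12.3, 11.5 and 24.3 CPM with DMSO and 19.3, 12.9 and 18.2 with AZD7762. DMSO replicate 3 was the highest of the 6 libraries and its group the more variable. On the log2 scale the difference was 0.093 (95% interval -0.43 to 0.61, adjusted p = 0.930, edgeR), without DMSO replicate 3 it was 0.51 (adjusted p = 0.114), and without DMSO replicate 1, DMSO replicate 2 or AZD7762 replicate 1 it was below 0. Its longest transcript had a GC content of 66.3%, and after removal of GC content and length trends the difference was 0.031. GPR137 overlaps 23.7% of its exon length on the opposite strand and had 34.9 ± 3.36 and 40.0 ± 5.17 CPM.

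BIK (ENSG00000100290, chromosome 22, 43506756 to 43525718), a BH3-only protein of the endoplasmic reticulum, had 2.98, 2.98 and 3.40 CPM with DMSO and 4.37, 2.90 and 2.86 with AZD7762. AZD7762 replicate 1 was the highest library, and the other two AZD7762 libraries lay below every DMSO library. Its log2 fold change was 0.14 (95% interval -0.26 to 0.53, adjusted p = 0.861, edgeR), and without AZD7762 replicate 1 it was -0.12.

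MCL1, the short-lived guardian that NOXA binds, was the most abundant family member by CPM. MCL1 (ENSG00000143384, chromosome 1, 150533371 to 150552214) had 305, 277 and 290 CPM in the DMSO replicates and 278, 304 and 278 in the AZD7762 replicates. The groups covered the same range. Between them the difference was -0.020 on the log2 scale, with a 95% interval from -0.16 to 0.12 (adjusted p = 0.945, edgeR). That interval does not reach the fitted change of PMAIP1 or BCL2L11. The sign turned without DMSO replicate 1 or AZD7762 replicate 3, and once GC content and length trends had been removed.

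BCL2L1 (ENSG00000171552, chromosome 20, 30252255 to 30311792) encodes BCL-XL, the pro-survival protein on which mature β cells are known to rely. It had 129, 131 and 129 CPM with DMSO and 142, 142 and 136 with AZD7762. Every AZD7762 library was above every DMSO library, and non-overlapping groups were seen for 15.0% of all genes tested. Its log2 fold change of 0.11 (95% interval -0.0055 to 0.23) had an adjusted p of 0.541 in edgeR's test. Of its exon length, 41.3% is covered on the opposite strand by ABALON, at 3.91 ± 0.654 and 3.98 ± 0.493 CPM.

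BCL2 (ENSG00000171791, chromosome 18, 60790579 to 60987361), the founding pro-survival gene, was scarce in these cells. It had 4.83, 4.33 and 3.30 CPM with DMSO and 4.05, 3.04 and 3.65 with AZD7762, so that the groups overlapped. It had a log2 fold change of -0.22 (95% interval -0.59 to 0.14, adjusted p = 0.716, edgeR).

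The effectors form the pore in the outer membrane, and neither passed the test. BAK1 (ENSG00000030110, chromosome 6, 33540324 to 33548070) had 15.6, 15.7 and 16.3 CPM with DMSO and 18.6, 18.1 and 18.6 with AZD7762. Both groups were tight and did not overlap. Its level was 16.1% higher with AZD7762, and the log2 fold change of 0.22 (95% interval 0.050 to 0.38) came with an unadjusted p of 0.0151 and an adjusted p of 0.364 in edgeR's test. An unadjusted p under 0.05 was reached by 9.68% of all genes, 4.43% higher and 5.25% lower. BAX (ENSG00000087088, chromosome 19, 49458072 to 49465055) had 68.2, 65.4 and 72.7 CPM with DMSO and 77.4, 65.0 and 75.3 with AZD7762, overlapping groups with a log2 fold change of 0.079 (95% interval -0.083 to 0.24, adjusted p = 0.789, edgeR). After removal of GC content and length trends that of BAX was 0.020 and that of BAK1 was 0.16.

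The median log2 fold change was -0.30 over the 5 BH3-only members, -0.020 over the 3 pro-survival members and 0.15 over the 2 effectors, against 0.0076 over all genes tested. The BH3-only median is the value of BCL2L11 and the pro-survival median that of MCL1. Of the BH3-only members, 3 were below 0 and 2, BAD and BIK, above. Groups that did not overlap were found for 2 BH3-only members, both lower, and for BCL2L1 and BAK1, both higher. Such separation was seen downward in 8.24% and upward in 6.81% of all genes. The difference between the roles was not tested, because the genes of a role are few and are not replicates.

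To compare levels between genes, counts were divided by exon length and scaled to the same total in each library (TPM). With DMSO, MCL1 stood first at 199.6 ± 9.37 TPM, followed by PMAIP1 at 181 ± 4.92, BCL2L1 at 132 ± 1.30 and BAX at 114 ± 6.21. Next came BCL2L11 at 57.7 ± 1.30, BAD at 40.1 ± 18.0, BAK1 at 30.7 ± 0.793 and BIK at 14.0 ± 1.11. BCL2 and BBC3 closed the order at 1.41 ± 0.263 and 1.12 ± 0.206 TPM, so MCL1 exceeded BBC3 by 179-fold. Neighbours whose libraries overlapped were BCL2L11 and BAD, BAD and BAK1, and BCL2 and BBC3.

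With AZD7762 a single exchange took place in this order. PMAIP1, at 130 ± 5.68 TPM, moved behind BCL2L1, at 135 ± 2.49, and the ranges of these neighbours overlapped. MCL1 was again first at 186 ± 10.6 TPM. The ratio of MCL1 to PMAIP1 in TPM was 1.18, 1.02 and 1.12 in the DMSO replicates and 1.34, 1.48 and 1.48 in the AZD7762 replicates, and that of BCL2L1 to BCL2L11 was 2.25, 2.37 and 2.23 and then 3.27, 2.94 and 2.97. Both ratios were higher in every AZD7762 library than in any DMSO library, as the levels of their members already imply.

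Summed by role, BH3-only transcripts made up 36.7%, 38.1% and 39.4% of the TPM of the 10 genes in the DMSO replicates and 33.8%, 32.3% and 32.4% in the AZD7762 replicates. Their summed level went from 294 ± 18.4 to 229 ± 7.86 TPM. The pro-survival sum was 333 ± 8.31 and 322 ± 12.2 TPM, and the effector sum 144 ± 6.90 and 147 ± 10.4 TPM. The effector share was 18.6%, 18.5% and 19.0% with DMSO and 21.6%, 19.4% and 22.0% with AZD7762, and the pro-survival share 44.7%, 43.4% and 41.6% and then 44.6%, 48.3% and 45.5%. Thus the BH3-only share was lower and the effector share higher in every AZD7762 library than in any DMSO library, while the pro-survival shares overlapped. The lower BH3-only share mainly restates the falls of PMAIP1 (181 to 130 TPM) and BCL2L11 (57.7 to 44.2 TPM). BAD, BIK and BBC3 had 40.1, 14.0 and 1.12 TPM with DMSO and 39.7, 14.3 and 0.740 with AZD7762. A smaller BH3-only sum by itself raises the other shares. Of the summed levels, the BH3-only sum separated the groups and the other sums overlapped. The log2 ratio of the pro-survival sum to the sum of BH3-only and effector transcripts was -0.39 ± 0.0918 with DMSO and -0.22 ± 0.113 with AZD7762, a difference of 0.17. The groups overlapped, since on the linear scale AZD7762 replicate 1 (0.804) lay just under DMSO replicate 1 (0.808), and without PMAIP1 the difference was 0.015. No test is given for these sums.

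**Figure D2:**
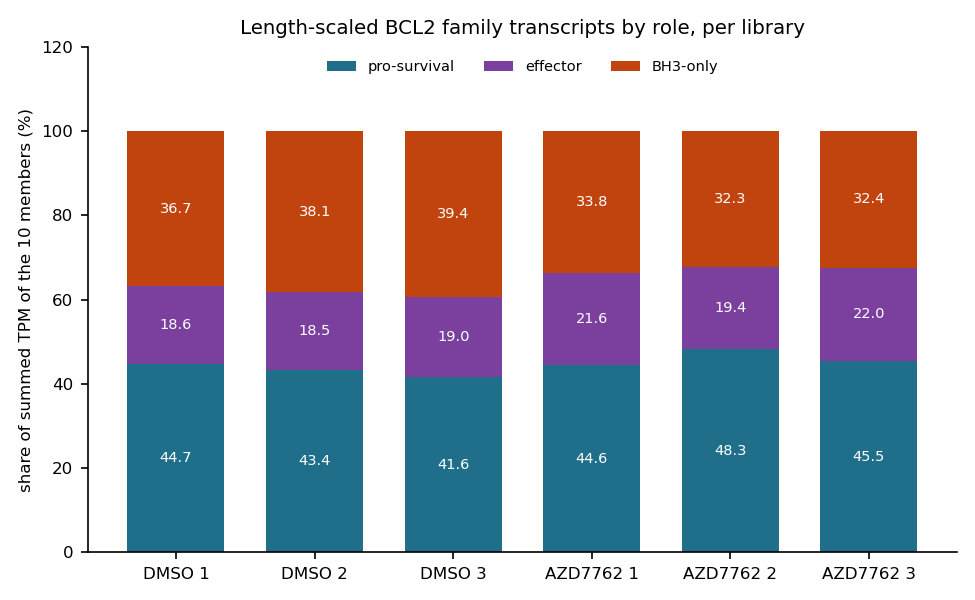
Share of the summed TPM of the 10 genes (y axis, percent) held by pro-survival, effector and BH3-only transcripts in each of the 6 libraries (bars). The BH3-only part spans 36.7% to 39.4% with DMSO and 32.3% to 33.8% with AZD7762.

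The list of other family genes held 15. Of these, 12 were tested and 0 were called in edgeR's test. At an unadjusted p under 0.05, 3 were lower (HRK, BMF and BCL2L2) and 0 higher, beside 5.25% and 4.43% of all genes. HRK (Harakiri), a BH3-only gene of neurons and β cells, had 4.36, 3.89 and 4.21 CPM with DMSO and 2.46, 2.23 and 2.90 with AZD7762. Its groups did not overlap. Its log2 fold change of -0.71 (95% interval -1.04 to -0.39) had an adjusted p of 0.0513 in edgeR's test, just above the threshold, and it was called under 6 of the 9 other settings and with 1 of the 6 libraries left out (AZD7762 replicate 3, adjusted p = 0.0464).

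BMF, a BH3-only protein held at the cytoskeleton until stress releases it, had 80.0, 78.8 and 80.4 CPM with DMSO and 66.1, 67.4 and 68.0 with AZD7762. The libraries of each group were nearly level, with a clear step between the groups. BMF had a log2 fold change of -0.25 (95% interval -0.37 to -0.13, adjusted p = 0.0759, edgeR), and it was called under 4 of the 9 other settings and in none of the fits that left out a library. BMF-AS1 overlaps 8.46% of its exon length on the opposite strand. BID, the BH3-only protein that caspase 8 cleaves, had 41.1 ± 2.58 and 43.7 ± 1.98 CPM. Over 8 BH3-only genes, the 5 members with BID, BMF and HRK, 4 were lower and 0 higher at an unadjusted p under 0.05 (edgeR). Of all genes, 5.25% were lower at that level. Of the 5 pro-survival genes tested, members and others, 1 (BCL2L2) was lower and 0 were higher at that level. The genes were grouped with earlier results of these data known, so these counts are not a test of a role.

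The pro-survival gene BCL2L2 had 50.1 ± 1.57 CPM with DMSO and 44.8 ± 1.09 with AZD7762, or -0.16 on the log2 scale (adjusted p = 0.405, edgeR), and BCL2L2-PABPN1 overlaps 16.8% of its exon length. BCL2L10, another pro-survival gene, had 2.87 ± 0.239 and 3.30 ± 0.0693 CPM. BCL2A1, a pro-survival target of NF-κB, lay under the floor at 0.0113 and 0.0156 CPM and was not tested. The effector-like gene BOK had 12.9 ± 1.69 and 13.9 ± 1.92 CPM. None of the 3 tested passed. The groups did not overlap for BCL2L2, which was lower with AZD7762, or for BCL2L10, which was higher.

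Among members outside these roles, the mitophagy receptors BNIP3 and BNIP3L had 117 ± 1.15 against 117 ± 6.22 CPM and 210 ± 9.93 against 209 ± 9.04 CPM. BCL2L13, a further mitochondrial receptor, had 86.4 ± 2.35 and 83.5 ± 3.02 CPM. MOAP1, a partner of BAX, had 69.2 ± 4.06 and 66.1 ± 2.70 CPM. BCL2L12, BCL2L2-PABPN1, BCL2L14 and BCL2L15 stayed under 1 CPM in both groups, with means of 0.772 and 0.898, 0.419 and 0.405, 0.165 and 0.123, and 0.0272 and 0.0132 CPM. None of these passed edgeR's test.

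**Figure D3:**
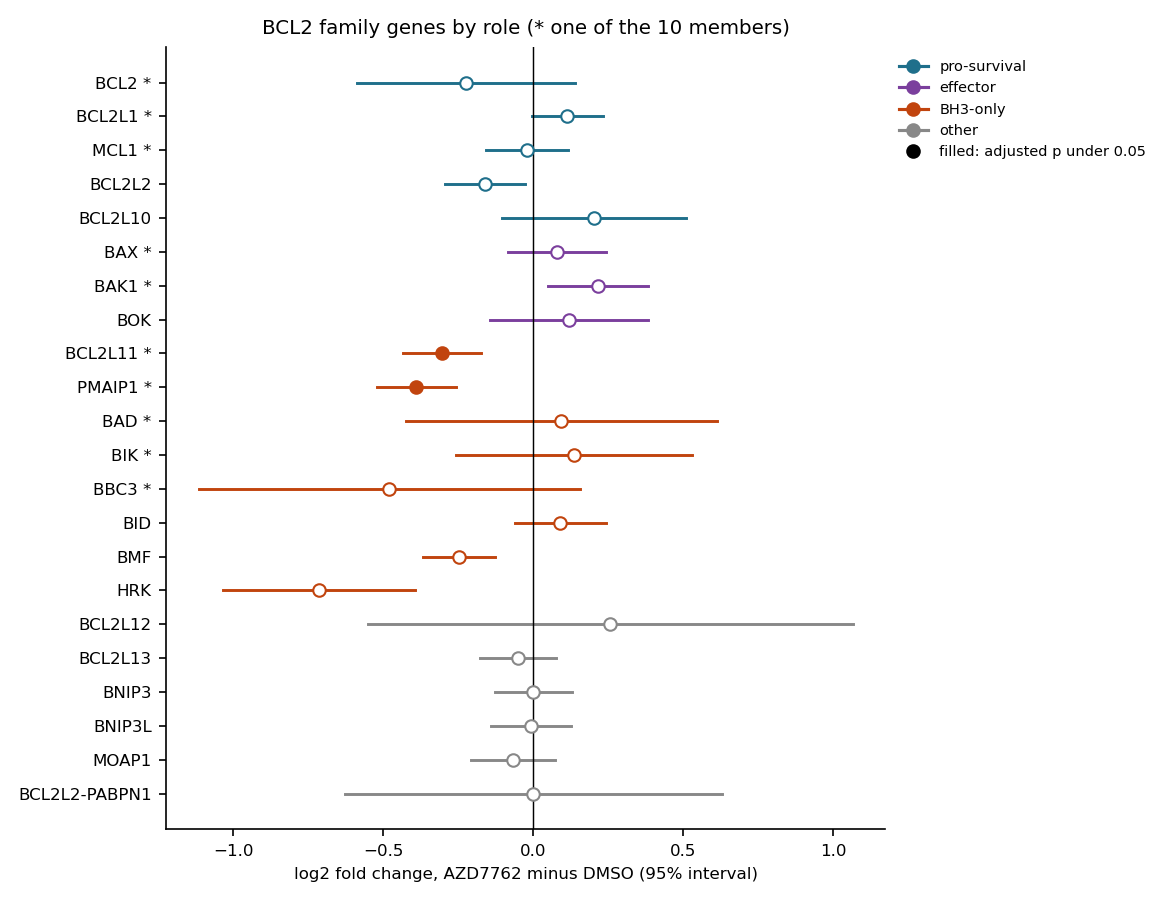
Log2 fold change of AZD7762 against DMSO (x axis, circles) with its 95% interval (lines) for the 22 tested family genes, coloured by role, filled where the adjusted p was under 0.05. PMAIP1 and BCL2L11 are filled, and 4 of the 8 BH3-only genes (BCL2L11, PMAIP1, BMF and HRK) have intervals wholly below 0. Outside the BH3-only genes, the interval of BCL2L2 (pro-survival) lies wholly below 0 and that of BAK1 (effector) wholly above 0.

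Downstream of the family stands the machinery that executes apoptosis. Of its 15 listed genes, for cytochrome c, the apoptosome, caspases and mitochondrial factors, 0 were called and 0 had an unadjusted p under 0.05 in edgeR's test, with a median log2 fold change of 0.019 and a range from -0.084 to 0.14. The smallest p were those of AIFM1, the mitochondrial flavoprotein released in caspase-independent death (52.5 ± 3.88 and 56.8 ± 1.49 CPM, adjusted p = 0.642), and HTRA2, a mitochondrial protease (30.2 ± 0.141 and 32.5 ± 2.01 CPM, adjusted p = 0.674). Of 7 inhibitor of apoptosis genes, 5 were tested and 0 were called, the smallest p being those of BIRC5, which encodes survivin (135 ± 10.4 and 151 ± 9.77 CPM, unadjusted p = 0.0447, adjusted p = 0.499), and XIAP, the direct caspase inhibitor (81.9 ± 4.47 and 76.9 ± 8.19 CPM, adjusted p = 0.761).

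Genes listed for a link to MCL1 turnover were examined because MCL1 protein is known to be set largely by its degradation. Whether each of them acts on MCL1 in these cells was not tested. Of 11 such genes, 0 were called by edgeR. At an unadjusted p under 0.05, 1 was higher and 2 were lower, beside 4.43% and 5.25% of all genes. The higher one was BAG3 (14.3 ± 1.65 and 16.5 ± 0.756 CPM, log2 fold change 0.21, adjusted p = 0.505, edgeR), with groups that overlapped. Those lower were TRIB2, a pseudokinase scaffold (6.58 ± 0.339 and 4.86 ± 0.113 CPM, log2 fold change -0.44, adjusted p = 0.139), and FBXW7, the ubiquitin ligase subunit that recognizes MCL1 (47.9 ± 4.37 and 41.5 ± 0.763 CPM, log2 fold change -0.21, adjusted p = 0.365). In both TRIB2 and FBXW7 the groups did not overlap, as was seen downward in 8.24% of all genes.

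PMAIP1, BBC3 and BAX are p53 targets, so 16 other targets of p53 were read beside them. In edgeR's test 0 of the 16 were called, and the median log2 fold change was -0.065. At an unadjusted p under 0.05, 0 were higher and 1 was lower, beside 4.43% and 5.25% of all genes. The smallest p belonged to TP53INP1 (135 ± 4.61 and 121 ± 6.46 CPM, log2 fold change -0.16, adjusted p = 0.408) and FAS, the death receptor (0.912 ± 0.176 and 0.644 ± 0.110 CPM, log2 fold change -0.53, adjusted p = 0.573). Of the 16, 12 had a log2 fold change below 0 and 4 above, beside 8407 below and 9242 above among all 17649 genes tested.

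Among 10 transcription factors known to act on BH3-only genes, 3 were called, 2 lower and 1 higher, beside 0.708% of all genes tested. The list was chosen with earlier results of these data known, so this count is not a test of such factors. DDIT3 (CHOP), which drives BCL2L11 under endoplasmic reticulum stress, had 29.0, 28.9 and 31.0 CPM with DMSO and 13.9, 14.7 and 15.8 with AZD7762, and so changed by -0.999 on the log2 scale (SE 0.0798, adjusted p = 2.09e-05, edgeR). JUN, the AP-1 subunit linked to BCL2L11 and HRK in neurons, had 202, 203 and 239 CPM with DMSO and 160, 154 and 162 with AZD7762, which is -0.43 on the log2 scale (adjusted p = 0.0102, edgeR). MYC, which sensitizes cells to apoptosis, went the other way, with 2.64, 3.60 and 2.78 CPM against 9.69, 8.64 and 11.1 (1.70 on the log2 scale, adjusted p = 4.69e-05, edgeR). The calls of DDIT3 and MYC held with each library left out, and that of JUN was lost without AZD7762 replicate 1 (adjusted p = 0.115) or AZD7762 replicate 2 (adjusted p = 0.0704). In each of these 3 genes the groups did not overlap, as was seen in 15.0% of all genes tested. FOXO1, FOXO3, FOXO4, ATF3, ATF4, E2F1 and TFAP2A were not called, and whether any of these factors acts on the family genes here was not tested.

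Markers of cell identity were read beside the family. Of the 18 β cell markers, MAFA alone was called in edgeR's test, from 17.3 ± 3.41 to 40.4 ± 4.24 CPM (adjusted p = 0.000133). Of the 7 tested markers of other cell types, 7 had a log2 fold change above 0, 3 had an unadjusted p under 0.05 and 0 were called. Of all genes, 4.43% were higher at that unadjusted level. Among those 3 markers the smallest p were those of the collagen gene COL1A2 (2.92 ± 0.275 and 4.35 ± 0.402 CPM, adjusted p = 0.125) and SST (adjusted p = 0.160). The third of them was CPA1, a pancreatic acinar gene, at 21.8 ± 0.827 and 25.7 ± 1.56 CPM (unadjusted p = 0.00925, adjusted p = 0.308, edgeR), with groups that did not overlap. PRSS1, another acinar marker, was at 0 in all 6 libraries. VWF and CD68 were at 0 with AZD7762 and had at most 2 counts in any DMSO library, under the floor of 3. Their part in the falls of PMAIP1 and BCL2L11 was not tested.

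The genes whose levels ran most alike with those of the genes that fell were sought among 10404 genes with a mean of at least 10 CPM, by Pearson's r of log2 CPM over the 6 libraries, as a description. For PMAIP1 they were MTURN (r = 0.999), RNF6 (0.998) and ZNF614 (0.996), and for BCL2L11 they were ZFP37 (0.996), CEP43 (0.991) and APH1B (0.991). With 6 points the measure is loose, since 183 genes had r over 0.9 with PMAIP1 and 283 with BCL2L11. The 6 points share the difference between the groups as well as library effects.

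**Figure D4:**
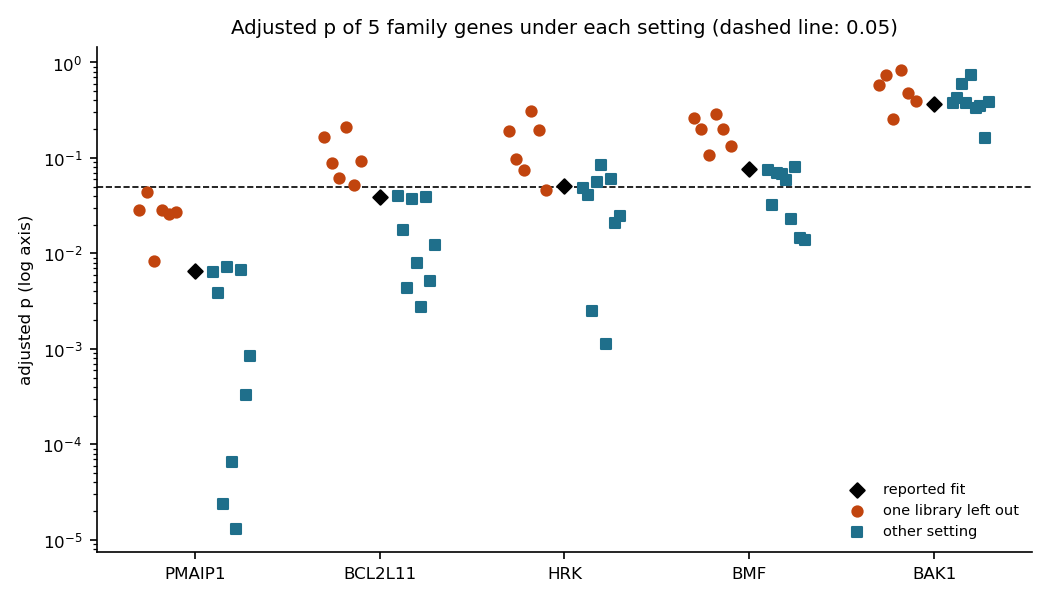
Adjusted p (y axis, log scale) of PMAIP1, BCL2L11, HRK, BMF and BAK1 in the reported fit (diamonds), with 1 library left out (circles) and under the other settings (squares), the dashed line marking 0.05. All PMAIP1 points lie under the line, the BCL2L11 circles lie above it, HRK and BMF lie on both sides, and all BAK1 points lie above.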

How the data were processed

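RNA-seq counts of 6 samples, 3 DMSO and 3 AZD7762, were grouped by their titles. Per the labels and the methods, reads were checked with FastQC 0.10.1, trimmed with cutadapt 1.18, aligned to GRCh37 and counted on genes with HTSeq-count. The aligner, the annotation release and the strand setting are not given in the sources used here. The deposited values are raw counts per gene, 1 file a sample, with no scaling or filter.

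The R 4.3.3 package edgeR 4.0.16 was used for the tests. Low counts were filtered with filterByExpr, libraries were scaled by TMM, and AZD7762 was compared with DMSO by the quasi-likelihood test across all 17649 genes kept, two-sided, with Benjamini-Hochberg adjustment and a threshold of 0.05. Standard errors are the log2 fold change divided by the root of the F statistic, and 95% intervals use the t distribution. Depth ranged from 20486391 to 29402440 counts. The chi-square per gene between replicates of a group was 4.92 to 9.53, beyond sampling noise, so no library was counted as a copy of another. Symbols, positions and exon lengths came from a GRCh37 annotation that matched 58646 identifiers, and TPM used its exon lengths, which count all isoforms together. Promoters came from the RefSeq table, which held 8 of the 10 members, MCL1 and BIK being the others. No protein sequences were used here.

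The members, lists and naming rules were chosen with earlier results of these data known. All 10 members are named, as are, from each other list, the genes called or, with none called, the 2 with the smallest p, and for each called member the 3 genes most like it. Alternatives were other scalings, filters and tests (limma 3.58.1, DESeq2 1.42.0), the replicate number as a term, leaving out each sample and, chosen after seeing the data, removing GC content and length trends. The fit was tested on simulated data, in which the changes were larger than those of PMAIP1 and BCL2L11.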

Additional observations from a re-analysis of the deposited data

How the results depend on the processing

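PMAIP1 was called in all 15 other fits and BCL2L11 in the 9 that kept the 6 libraries. Leaving out 1 library gave 1 called member in each of the 6 fits (from 1 to 1, against 2), with log2 fold changes of BCL2L11 from -0.35 to -0.28. Of 149 values of the members under other settings, 136 kept their direction and side of the threshold, 6 lost the call and 7 turned sign. The latter were MCL1 without DMSO replicate 1 (0.012), without AZD7762 replicate 3 (0.0023) and after removing GC content and length trends (0.014), BAD without DMSO replicate 1 (-0.078), DMSO replicate 2 (-0.11) or AZD7762 replicate 1 (-0.033), and BIK without AZD7762 replicate 1 (-0.12). Over all leave-one-out fits, MCL1 ranged from -0.071 to 0.012, BAD from -0.11 to 0.51 and BIK from -0.12 to 0.24. The difference in the log2 ratio of pro-survival to other members, 0.17, was 0.015 without PMAIP1, which held the largest BH3-only level. BBC3 was not tested with at least 10 counts in every sample.

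The number of all genes called, 125, was 267 by the likelihood ratio test of edgeR, 330 when no low counts were filtered and 227 after removing GC content and length trends, the last chosen after seeing the data. With 1 library left out it ranged from 77 (AZD7762 replicate 1) to 168 (DMSO replicate 3). The cause was not tested. With the replicate number as a block, 378 genes were called, among them the 125, and no call of a member changed. Same-numbered samples deviated together with r of 0.053, 0.12 and 0.21, and differently numbered samples with r from -0.25 to 0.17. DMSO replicates 2 and 3 correlated best with the AZD7762 replicate of the same number, and DMSO replicate 1 with AZD7762 replicate 2. Whether the numbers mark pairs is not settled by these values, and the reported fit did not take them as pairs. Low counts limit BBC3, BCL2 and BIK, whose intervals are wide.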

Other observations

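BAX, BAD and BOK had their 3 highest values in the same libraries, a pattern chosen after the values were seen. For BAD these were DMSO replicate 3 (24.3 normalized CPM), AZD7762 replicate 1 (19.3) and AZD7762 replicate 3 (18.2), against at most 12.9 CPM elsewhere. For BOK they were 14.8, 15.8 and 13.9 CPM, against at most 12.01, and for BAX 72.7, 77.4 and 75.3 CPM, against at most 68.2. INS, which is not a family gene, also had its 3 highest values there, at 1660, 1481 and 1614 CPM against at most 1131. The longest transcripts of BAD, BOK, BAX and INS had GC contents of 66.3%, 66.0%, 58.9% and 64.9%, against 36.7% for PMAIP1 and 46.6% for BCL2L11. BBC3 (69.7%), BAK1 (58.8%) and BCL2L1 (58.2%) did not have their 3 highest values in these libraries. BBC3 had 9 to 26 counts a library, and the 3 highest values of BAK1 and BCL2L1 were those of the AZD7762 libraries. After removal of GC content and length trends, the log2 fold change of BAX was 0.020 in place of 0.079 and that of BAD 0.031 in place of 0.093. The part of base composition in this pattern was not tested further.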
